A study of Homo sapiens with 2 samples.

Results

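The genes that build and move melanosomes were compared between IGR37, a melanoma cell line from a lymph node metastasis, and IGR39, a melanoma cell line from a primary skin tumour described as achromic. The 10 genes RAB27A, RAB38, RAB32, MLPH, MYO5A, HPS4, HPS1, BLOC1S1, AP3D1 and ATP7A were taken by symbol from the platform annotation, out of 19775 genes with a value, and all of them were measured, by 27 probe sets in all. Neither line carried a stated genetic change or treatment, and both were grown in DMEM with 10% serum and antibiotics. Total RNA of each line was hybridised to 1 Affymetrix U133 Plus 2.0 array of 54675 probe sets, groups of short probes that read 1 transcript region each. Both lines are established cultures, so each stands for 1 tumour cell population, and the study is about a gene tied to a switch of melanoma phenotype. Levels are the authors' log2 values, so that a difference of 1 is 2-fold, and differences are IGR37 minus IGR39.

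Melanosomes are the organelles in which melanocytes make and store melanin. They mature from endosomes: the adaptor AP-3 and the complexes BLOC-1 and BLOC-2 sort enzymes from endosomes toward them, and BLOC-3, made of HPS1 and HPS4, activates the small GTPases RAB32 and RAB38 that direct this traffic. ATP7A pumps in the copper that tyrosinase needs. On the mature organelle, RAB27A recruits melanophilin, encoded by MLPH, which binds the actin motor myosin Va, encoded by MYO5A, and this complex holds melanosomes in the tips of the cell. Inherited loss of HPS1, HPS4 or AP3D1 causes Hermansky-Pudlak syndrome, and loss of RAB27A, MYO5A or MLPH causes Griscelli syndrome.

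The GTPases, the motor and a single BLOC-3 subunit were higher in IGR37, while the linker MLPH, the other BLOC-3 subunit, the copper pump and the sorting subunits BLOC1S1 and AP3D1 lay within 2-fold. Past 2-fold in this direction were RAB38, RAB27A, RAB32, MYO5A and HPS4, a count of 5, and the 5 others were MLPH, HPS1, BLOC1S1, AP3D1 and ATP7A. None of the 10 was at least 2-fold lower. Over all 19775 genes, the share past this limit was 5.8% upward and 4.85% downward. A level of log2 6 was taken as the minimum for a measured gene, and all 10 members reached it in IGR37 and 9 in IGR39, the exception being RAB38. Among the 8501 genes that reached it in the brighter line, the shares were 11.4% upward and 9.5% downward. The members' median difference was 1.22, beside 0.07 over those 8501 genes. At the 4-fold limit stood 4 members, beside 3.71% of those genes. The smallest difference past 2-fold was that of HPS4, at 1.81, and the largest within it that of AP3D1, at 0.63.

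No culture was repeated, so no test was possible and no difference has a replicate check. Technical yardsticks came from the arrays themselves. Poly-A spike-ins, RNAs added before labelling and read by 24 probe sets, differed between the arrays by -0.47 to 0.68, with a median of 0.25. The pooled SD between probe sets of the same gene was 0.40, over 3178 genes that had several at this level. The 5 members within 2-fold lay inside the spike-in range on their brightest probe sets. A dimmer probe set of AP3D1 (0.75) and of ATP7A (0.78) lay outside it. The range ends below the 2-fold limit, so any gene past 2-fold lies outside it by definition. The spike-ins thus add no support for the 5 members past 2-fold. Fewer cells that express a gene and less of its RNA per cell cannot be told apart in such bulk RNA.

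**Figure D1:**
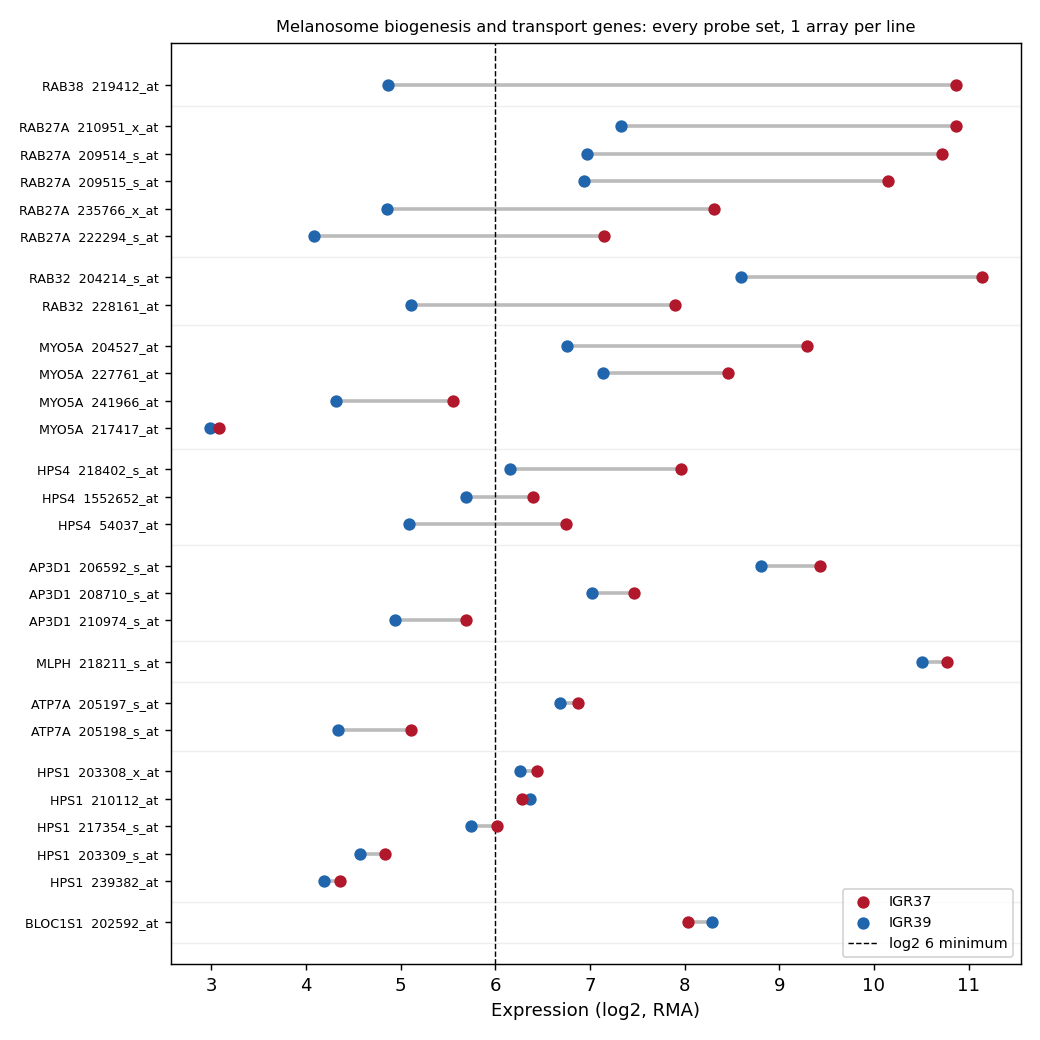
Level of every probe set of the 10 members in IGR37 (red) and IGR39 (blue), in log2 units on the horizontal axis, with 1 array per line, genes ordered by their difference and the minimum of log2 6 dashed. In 25 of 27 probe sets IGR37 lies to the right, with long bars for RAB38, RAB27A and RAB32 and short ones from AP3D1 down.

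Promoter windows of RefSeq (GRCh38.p14), from 250 bases before to 50 after an annotated start, were matched by symbol for 7 of the members, all but RAB38, HPS1 and AP3D1. The letters CACGTG, an E-box to which MITF and other factors of its class bind, and CATGTG, the core of the M-box of pigment genes, were searched on both strands. The windows of RAB27A, MLPH and MYO5A are shown because these genes encode 1 transport complex and differed unlike one another, and that of BLOC1S1 because it alone held the E-box more than once. Capitals mark the E-box, and each sequence runs 5′ to 3′ on the gene's strand.
RAB27A, chr15:55319074-55319373, minus strand: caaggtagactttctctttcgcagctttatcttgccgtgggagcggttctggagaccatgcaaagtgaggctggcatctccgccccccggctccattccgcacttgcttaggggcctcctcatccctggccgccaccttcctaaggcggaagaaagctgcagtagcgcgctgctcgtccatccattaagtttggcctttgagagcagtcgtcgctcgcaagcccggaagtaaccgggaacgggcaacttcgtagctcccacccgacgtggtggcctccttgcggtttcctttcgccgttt
MYO5A, chr15:52529001-52529300, minus strand: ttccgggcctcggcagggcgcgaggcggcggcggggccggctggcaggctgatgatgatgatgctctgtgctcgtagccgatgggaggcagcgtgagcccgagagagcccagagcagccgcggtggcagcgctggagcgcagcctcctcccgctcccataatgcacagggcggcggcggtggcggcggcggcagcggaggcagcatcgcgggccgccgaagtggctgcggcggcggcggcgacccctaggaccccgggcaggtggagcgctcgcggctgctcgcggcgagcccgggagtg
MLPH, chr2:237487001-237487300, plus strand: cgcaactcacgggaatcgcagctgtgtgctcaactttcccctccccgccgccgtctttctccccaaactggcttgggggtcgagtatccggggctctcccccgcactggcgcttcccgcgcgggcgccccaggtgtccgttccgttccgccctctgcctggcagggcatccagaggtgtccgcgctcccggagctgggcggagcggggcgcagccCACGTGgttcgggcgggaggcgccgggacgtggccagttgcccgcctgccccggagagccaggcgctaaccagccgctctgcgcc
BLOC1S1, chr12:55715796-55716095, plus strand: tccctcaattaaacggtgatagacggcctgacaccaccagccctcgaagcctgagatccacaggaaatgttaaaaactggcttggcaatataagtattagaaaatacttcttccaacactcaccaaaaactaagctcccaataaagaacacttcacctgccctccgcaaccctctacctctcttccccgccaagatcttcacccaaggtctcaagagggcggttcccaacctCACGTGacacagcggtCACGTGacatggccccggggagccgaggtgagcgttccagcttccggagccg

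CACGTG stood in 3 of the 7 windows, those of MLPH, BLOC1S1 and ATP7A, all of them genes within 2-fold. It was found in 0 of the 4 windows of genes that were higher in IGR37, namely RAB27A, RAB32, MYO5A and HPS4. CATGTG stood in 0 of the 7. In the BLOC1S1 window the E-box began 18 and 2 bases before the start, each time inside TCACGTGA. The ATP7A window held it 138 bases before the start, in the stretch cttttCACGTGaccag, and the MLPH window 35 bases before, in cagccCACGTGgttcg. Among all 35116 windows of this length, 7.26% held CACGTG and 11.1% held CATGTG, and 17.6% held either. Of 1369 measured genes with CACGTG in the window, 8.11% were at least 2-fold higher in IGR37, beside 6.08% of the 15384 measured genes with a window. Base composition also varied, with GC at 59.3% for RAB27A, 53.0% for BLOC1S1 and 76.0% for both MYO5A and HPS4. These matches describe letters only, and the absence of a match says nothing of sites elsewhere.

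Both GTPases that direct cargo to the melanosome were higher in IGR37, and RAB38 had the largest difference of the 10 members. RAB38, whose loss gives the chocolate coat colour in mice, was at 10.86 in IGR37 and 4.87 in IGR39 on its only probe set, 219412_at. That is a difference of 6.00, or 63.9-fold. Its level in IGR39 was below the minimum and near the array's median of 4.17, so the size rests on a value close to background. Of the 19775 genes, 16 had a larger positive difference, while 93 exceeded RAB27A, 205 RAB32, 208 MYO5A and 411 HPS4. RAB32, the close relative that acts beside RAB38, was at 11.14 in IGR37 and 8.59 in IGR39 on 204214_s_at, a difference of 2.55 or 5.84-fold. Its other probe set was at 7.90 in IGR37 and 5.11 in IGR39, a difference of 2.79. On its brightest probe set RAB32 was thus above the minimum in both lines, whereas RAB38 reached it in IGR37 alone, and the difference of RAB38 exceeded that of RAB32 by 3.45.

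The BLOC-3 subunits that activate these GTPases differed unlike each other. HPS4 was at 7.97 in IGR37 and 6.16 in IGR39 on 218402_s_at, a difference of 1.81 or 3.50-fold. Its other probe sets were at 6.75 in IGR37 and 5.09 in IGR39, and at 6.40 in IGR37 and 5.69 in IGR39. The last pair differs by 0.72 only, so the direction was shared by 3 of 3 probe sets and the size was not. With probe sets of the _s_at and _x_at kinds left out, HPS4 had the value of 0.72 and lay within 2-fold. HPS1, its partner in the dimer, was at 6.44 in IGR37 and 6.26 in IGR39 on 203308_x_at, a difference of 0.18. Its other probe sets were at 6.29, 6.02, 4.84 and 4.37 in IGR37, against 6.37, 5.75, 4.57 and 4.19 in IGR39. The 5 probe sets of HPS1 differed by -0.08 to 0.27, all inside the spike-in range. The difference of HPS4 exceeded that of HPS1 by 1.63 on the brightest probe sets. HPS1 lay close to the minimum of log2 6 in both lines, where low levels are compressed, so its small difference is uncertain.

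Within the complex that ties melanosomes to actin, the GTPase and the motor were higher in IGR37 and the linker was not. RAB27A was at 10.87 in IGR37 and 7.33 in IGR39 on 210951_x_at, a difference of 3.54 or 11.6-fold. This probe set is of a kind that can cross-hybridise. The 4 others, which all end in _s_at or _x_at too, were at 10.72, 10.15, 8.31 and 7.14 in IGR37, against 6.97, 6.94, 4.85 and 4.09 in IGR39. Over all 5 probe sets the differences ran from 3.06 to 3.76, with an SD of 0.28, less than the pooled SD of 0.40 within genes. RAB27A also serves exosome release and the lytic granules of immune cells.

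MYO5A was at 9.30 in IGR37 and 6.76 in IGR39 on 204527_at, a difference of 2.54 or 5.81-fold. A second probe set at this level was at 8.46 in IGR37 and 7.13 in IGR39, a difference of 1.33. The dimmer probe sets were at 5.55 and 3.08 in IGR37, against 4.32 and 2.99 in IGR39, below the minimum in both lines. The probe sets of MYO5A therefore shared a direction but spread more than those of RAB27A, with an SD of 1.0. MLPH, the linker between RAB27A and MYO5A, was bright in both lines, at 10.77 in IGR37 and 10.51 in IGR39 on its only probe set, 218211_s_at. Its difference of 0.26 was 3.29 smaller than that of RAB27A and 2.28 smaller than that of MYO5A.

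On their brightest probe sets, the sorting genes differed by no more than the spike-ins. AP3D1, the large subunit that defines AP-3 and whose loss in the mouse gives the mocha phenotype, was at 9.43 in IGR37 and 8.80 in IGR39 on 206592_s_at. Its other probe sets were at 7.47 and 5.69 in IGR37, against 7.03 and 4.94 in IGR39. The differences of the 3 ran from 0.44 to 0.75, all with IGR37 above IGR39. BLOC1S1, a subunit of BLOC-1 that is also part of the lysosome-positioning complex BORC, was at 8.04 in IGR37 and 8.29 in IGR39 on 202592_at. It was the single member whose gene value was lower in IGR37, by a difference of -0.26. The copper pump ATP7A, the gene of Menkes disease, was at 6.87 in IGR37 and 6.68 in IGR39 on 205197_s_at, a difference of 0.19. Its other probe set was below the minimum, at 5.11 in IGR37 and 4.33 in IGR39. Together the 12 probe sets of the 5 members within 2-fold ran from -0.26 to 0.78, while 13 of the 15 probe sets of the other members were at least 2-fold higher in IGR37.

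**Figure D2:**
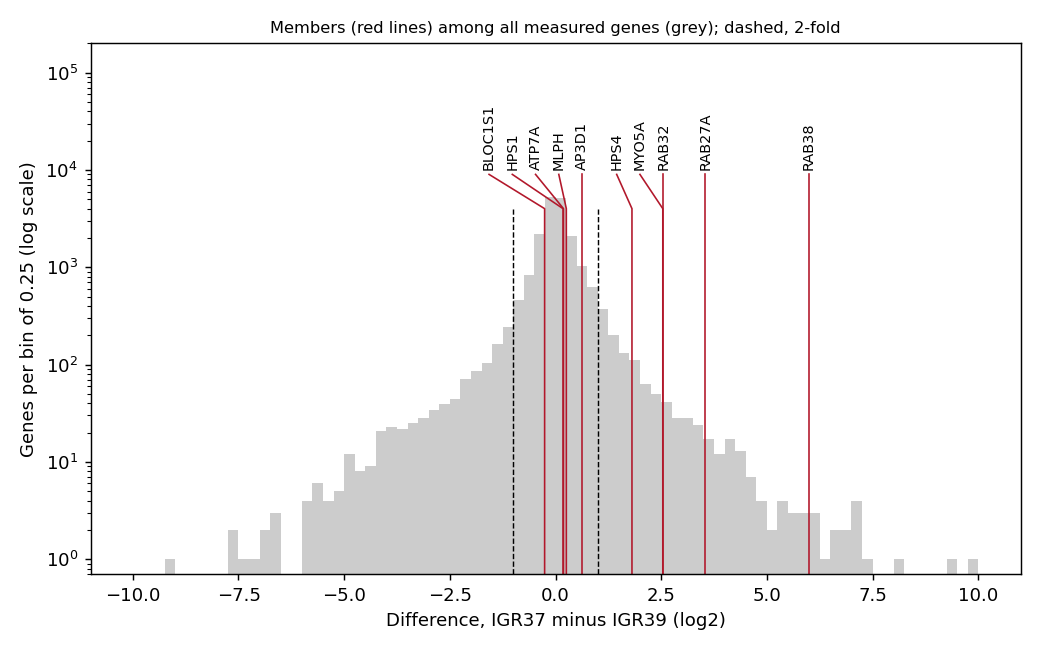
Differences between IGR37 and IGR39 (log2, horizontal axis) for all 19775 genes in grey, as genes per bin of 0.25 on a log scale, with the 10 members as red lines and 2-fold dashed. RAB38 at 6.00 and RAB27A at 3.54 lie far in the right tail, and BLOC1S1, HPS1, ATP7A and MLPH lie in the central peak.

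Other genes of the same machinery were read from lists chosen with earlier results of these data known, so their counts are a description only. Among 79 with a value, 13 (16.5%) were higher in IGR37 by 2-fold or more and 5 (6.33%) were lower by as much, beside the 5.8% and 4.85% of all genes, with a median of 0.15. Of these 18 genes, 16 reached the minimum in the brighter line and 2 did not. Among the 61 partners that reached it, 12 were higher and 4 lower, beside 11.4% and 9.5% of all genes that did. Over the 79 at any level, the mean over a gene's probe sets gave smaller counts, at 8 higher and 3 lower. The split moved with the scaling, to 10 higher and 9 lower when the arrays were centred on the mean of the housekeeping genes. RAB7A belongs both to those housekeeping genes and to the partners.

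**Figure D3:**
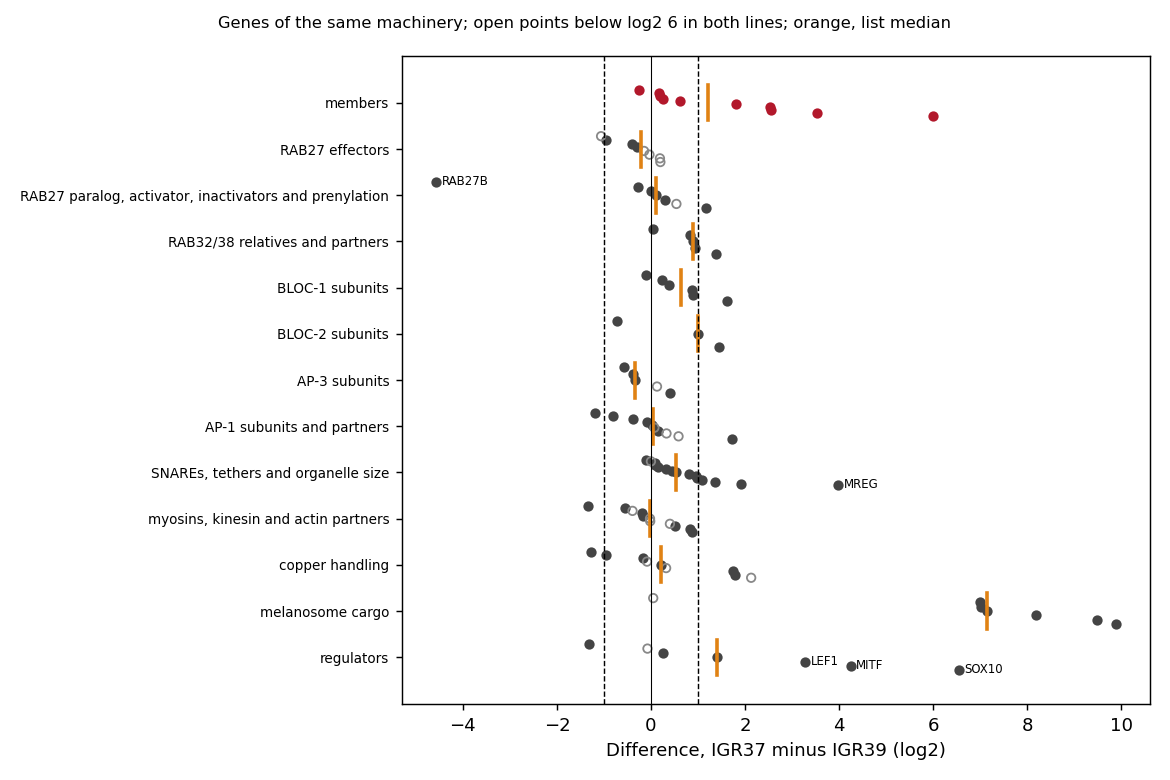
Difference between IGR37 and IGR39 (log2, horizontal axis) for each measured gene of each list, members in red at the top, open points below log2 6 in both lines, orange bars at list medians and 2-fold dashed. MREG at 3.98 and RAB27B at -4.57 stand far from the other transport genes, and 6 of the 7 cargo genes lie to the right of every member.

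RAB27B, the paralog of RAB27A, went the other way. It was at 3.58 in IGR37 and 8.15 in IGR39, a difference of -4.57, with its level in IGR37 near background, so the size is uncertain. Its other probe sets were below the minimum in both lines, at 3.21 and 2.84 in IGR37 and at 4.25 and 4.29 in IGR39. RAB27A was thus higher in IGR37, and RAB27B reached the minimum in IGR39 alone. Among the other activators, inactivators and prenylation genes of RAB27, 1 of 6 was past 2-fold: CHML, a RAB escort protein, at 6.36 in IGR37 and 5.19 in IGR39, while the other 5 of its 6 probe sets were below 2-fold. The GEF gene MADD was at 6.71 in IGR37 and 6.60 in IGR39. Of the 8 further RAB27 effectors, 0 were at least 2-fold higher and 1 was lower, beside 5.8% and 4.85% of all genes. Their median was -0.22, and 3 of the 8 reached the minimum in the brighter line. The lower one, SYTL5, was below the minimum in both lines. SYTL2, a synaptotagmin-like effector, was at 7.19 in IGR37 and 8.15 in IGR39. That difference of -0.96 lay just within 2-fold, and its 3 probe sets ran from -1.13 to -0.18.

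The partners of RAB32 and RAB38 differed by 0.05 to 1.38, and RAB7A alone passed 2-fold on its brightest probe set. ANKRD27, the effector known as VARP, was at 8.84 in IGR37 and 8.01 in IGR39, and the related GTPase RAB29 at 8.02 in IGR37 and 7.13 in IGR39, with 1.31 and -0.07 on the other probe sets of RAB29. RAB7A, a GTPase of late endosomes, was at 9.92 in IGR37 and 8.54 in IGR39. Of its 7 probe sets, 4 passed 2-fold upward and the 3 others, all dim, differed by -0.38 to -0.04. The list of 5 had a median of 0.89. In it 1 gene was higher and 0 lower, beside 5.8% and 4.85% of all genes.

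Subunits of BLOC-1 and of BLOC-2 did not differ alike, while the measured subunits of AP-3 all lay within 2-fold. In BLOC-1, 1 of 6 further subunits was past 2-fold: BLOC1S6, the human gene of the pallid mouse, at 8.63 in IGR37 and 7.02 in IGR39, with 3 of 3 probe sets between 1.47 and 1.79. The others included DTNBP1, or dysbindin, at 6.77 in IGR37 and 5.89 in IGR39, and SNAPIN at 7.98 in IGR37 and 7.75 in IGR39. The 3 probe sets of DTNBP1 differed by -0.05 to 1.64. In BLOC-2, HPS5 was at 6.58 in IGR37 and 5.14 in IGR39. HPS3 was at 9.52 in IGR37 and 8.51 in IGR39, a difference of 1.01 at the edge of 2-fold, and its other probe sets differed by 0.40 and 0.03. HPS6, the third subunit, was at 6.17 in IGR37 and 6.90 in IGR39. AP-3 had 0 of 5 further subunits past 2-fold, and its median was -0.33, with AP3B1 at 8.16 in IGR37 and 8.54 in IGR39. Over all genes, 5.8% were past 2-fold upward and 4.85% downward.

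In AP-1, which also carries cargo to melanosomes, AP1S2 was at 11.81 in IGR37 and 10.08 in IGR39, and its 4 probe sets differed by 1.60 to 3.70. The kinesin KIF13A, which moves with AP-1, was at 5.86 in IGR37 and 7.04 in IGR39, and the 5 other probe sets of KIF13A differed by -2.02 to 0.13, of which 1 passed 2-fold. The remaining 8 of the 10 genes in this list lay within 2-fold. Among SNAREs, tethers and genes of organelle size, 4 of 15 were higher and 0 lower, beside 5.8% and 4.85% of all genes. Of the 14 that reached the minimum, 4 were higher and 0 lower, beside 11.4% and 9.5% of all genes that did. MREG, which encodes melanoregulin, is the gene of the dilute suppressor mouse and was at 9.21 in IGR37 and 5.23 in IGR39, with a difference of 3.98 and 3.0 on its other probe set. The endosomal syntaxins followed, with STX7 at 8.56 in IGR37 and 6.63 in IGR39 and STX6 at 7.30 in IGR37 and 5.93 in IGR39. VPS11, a subunit of the HOPS tether, was at 7.73 in IGR37 and 6.65 in IGR39.

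No other motor of the list was at least 2-fold higher in IGR37 on its brightest probe set. MYO10 was at 9.76 in IGR37 and 8.92 in IGR39, and its 5 probe sets differed by 0.16 to 1.45. MYO5B was at 4.65 in IGR37 and 4.24 in IGR39, and MYO5C at 3.89 in IGR37 and 3.91 in IGR39, below the minimum in both lines. KIF5B, the heavy chain of the microtubule motor kinesin-1, was at 8.89 in IGR37 and 10.22 in IGR39, a difference of -1.33, with -0.87 and -0.88 on its other probe sets. Of the 11 genes in this list, 0 were at least 2-fold higher and 1 was lower, beside 5.8% and 4.85% of all genes.

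Copper import and the chaperone of ATP7A were higher in IGR37, while ATP7A itself lay within 2-fold. SLC31A1, the copper importer of the plasma membrane, was at 9.0 in IGR37 and 7.21 in IGR39, and its 3 probe sets differed by 1.52 to 1.79. ATOX1, the chaperone that hands copper to ATP7A, was at 11.59 in IGR37 and 9.83 in IGR39 on a single probe set. The metallothionein gene MT1X was lower, at 10.56 in IGR37 and 11.85 in IGR39, on probe sets that can cross-hybridise with its relatives. In all, 3 of 9 copper genes were at least 2-fold higher and 1 was lower, beside 5.8% and 4.85% of all genes. The third higher gene, ATP7B, was below the minimum in both lines. Among the 6 that reached it, 2 were higher and 1 lower, beside 11.4% and 9.5% of all genes that did.

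The cargo was far more unequal than the machinery. In this list 6 of 7 measured genes passed 2-fold upward, with a median of 7.14, and 0 of 7 reached the minimum in IGR39. TYR, tyrosinase itself, was at 11.36 in IGR37 and 4.22 in IGR39, while MITF, the lineage's transcription factor, was at 11.81 in IGR37 and 7.57 in IGR39. The cargo gene that was not higher was GPR143, at 3.38 in IGR37 and 3.34 in IGR39. Of 7 regulators, 4 passed 2-fold upward and 1 downward, beside 5.8% and 4.85% of all genes. Besides MITF, the higher ones were SOX10 at 10.65 in IGR37 and 4.10 in IGR39, LEF1 at 8.51 in IGR37 and 5.23 in IGR39, and PAX3 at 6.80 in IGR37 and 5.41 in IGR39. The other probe sets of LEF1 differed by 0.33 and 0.46 and those of PAX3 by -0.14 to 0.23, all below the minimum. TFE3, a relative of MITF, was lower, at 7.66 in IGR37 and 8.97 in IGR39, with 1 of its 4 probe sets past 2-fold. Most defining markers of the melanocyte lineage were thus above the minimum in IGR37, whereas in IGR39 the measured cargo genes and SOX10 were below it and MITF was above it. Few markers of other cell types reached the minimum, and 0 of 10 lymphocyte and macrophage genes did so in either line. Of 11 fibroblast and endothelial genes 2 reached it in IGR37 and 1 in IGR39. Of 6 keratinocyte genes, KRT10 alone reached it, at 9.08 in IGR37 and 9.13 in IGR39. COL1A2 was at 3.84 in IGR37 and 6.27 in IGR39 and LUM at 6.26 in IGR37 and 3.41 in IGR39, and their part in the members' differences was not tested.

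**Figure D4:**
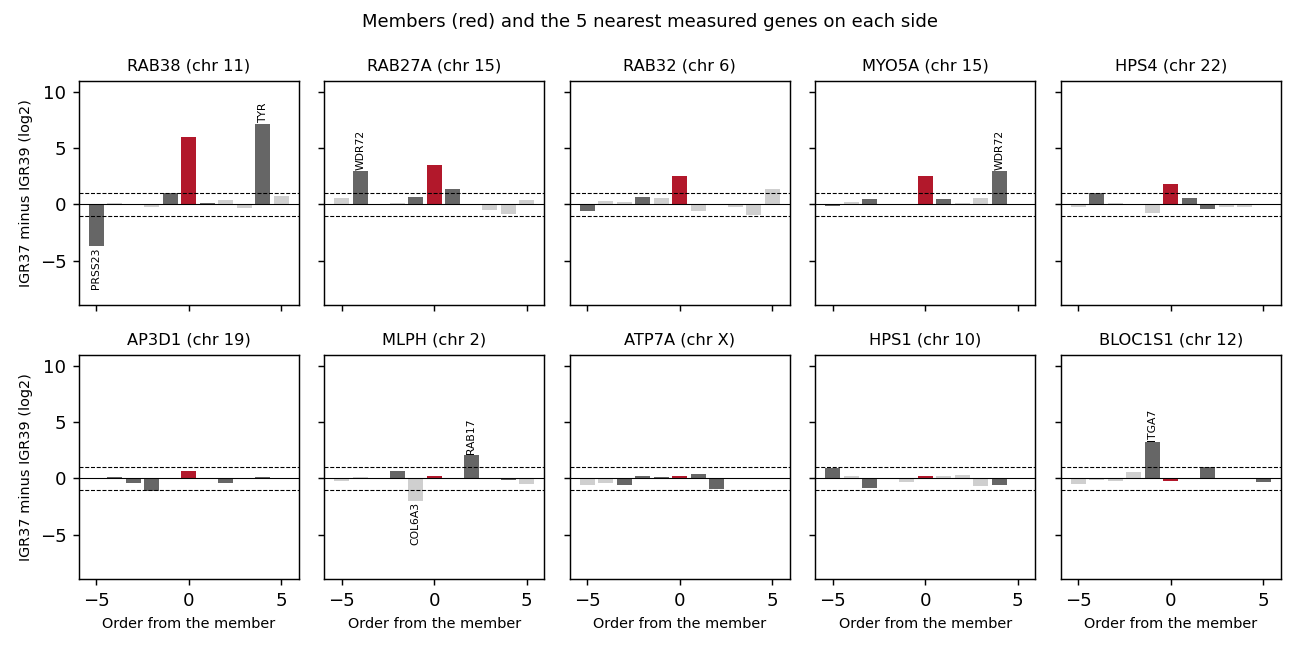
Difference between IGR37 and IGR39 (log2, vertical axis) for each member in red at position 0 and for the 5 nearest measured genes on each side in chromosome order, dark where log2 6 was reached and pale where it was not, with 2-fold dashed. Beside RAB38 the bar of TYR is high and those between them are short.

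The neighbours of the members on the chromosome were read as well. Of 97 distinct genes, the 5 nearest measured on each side of every member, 7 were past 2-fold upward and 3 downward, with a median of -0.01. Over all genes the shares were 5.8% upward and 4.85% downward, so these counts do not set the neighbours apart. Of the 97, 35 reached the minimum in the brighter line. RAB38 lies near TYR on chromosome 11, with 3 measured genes between them. Of these, CTSC, the gene of cathepsin C, was at 8.48 in IGR37 and 8.38 in IGR39, and GRM5 and LOC101929174 were below the minimum in both lines. PRSS23, on the other side of RAB38, was at 7.09 in IGR37 and 10.79 in IGR39. MYO5A and RAB27A lie on chromosome 15 with 7 measured genes between them. Of those, WDR72 alone was past 2-fold, at 6.24 in IGR37 and 3.23 in IGR39, while ARPP19 was at 10.01 in IGR37 and 9.53 in IGR39. Next to RAB27A, PIGB, an enzyme of GPI anchor synthesis, was at 7.92 in IGR37 and 6.57 in IGR39. BLOC1S1 lies beside ITGA7, an integrin gene at 8.60 in IGR37 and 5.37 in IGR39, and near CD63, a tetraspanin of late endosomes and melanosomes at 12.71 in IGR37 and 11.72 in IGR39.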

How the data were processed

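RNA of 2 melanoma cell lines, IGR37 and IGR39, was measured on 1 array each. The deposited values are on the log2 scale, and the authors obtained them with RMA (affy), according to the submitters' processing notes. Neither the versions nor the set of arrays normalised jointly is given in the sources used here. RMA subtracts a modelled background and equalises the arrays' distributions, so overall differences in brightness are removed and low levels are compressed.

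Gene names came from the platform's annotation table and were brought up to date by gene identifier with RefSeq (GRCh38.p14). Of 54675 probe sets, 41091 had 1 symbol (41037 matched by identifier), 1801 several and 11721 none. Those with several or none were not used, nor were the 62 controls except as yardsticks. A gene was represented by the probe set that was brightest on average. The minimum level was log2 6 and the fold limit 2. The values of every probe set of the members are given, with the ID of the brightest. Of each list of partner genes, genes past 2-fold at or above the minimum were named, at most 4 a list, and cargo genes and regulators were named for their levels beside the members, with further members of lists, neighbours and 2 dim genes chosen after their values were seen. List members without a named probe set are not reported here.

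With 1 array per line no test was run, and precision is limited by this number of arrays. The members and lists were chosen with earlier results of these data known. The calculation was tested on simulated data. Alternatives covered the minimum, the choice and combination of probe sets, and the scaling. Python 3.11.15, numpy 2.4.6, pandas 2.3.3, statsmodels 0.14.6 and matplotlib 3.10.9 were used.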

Additional observations from a re-analysis of the deposited data

How the results depend on the processing

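The count of 5 members at least 2-fold higher and 0 lower held under 8 of 9 alternatives. The minimums tried could not change it, as these 5 members were at log2 7.97 or above in IGR37. The centrings shifted the differences by too little to bring the smallest of the 5, at 1.81, under 2-fold. Without probe sets of the _x_at and _s_at kinds, 6 members had a value, of which 3 were at least 2-fold higher. RAB27A, MLPH, AP3D1 and ATP7A then had no probe set. HPS4 was at 0.72 on the brighter probe set it kept, while the dimmer one it kept differed by 1.66. The median difference of the members, 1.22, was 1.63 in that setting and 2.17 at a minimum of log2 7, which drops HPS1 and ATP7A. It lay under 2-fold, at 0.95, when probe sets of a gene were averaged and at 0.89 when centred on the mean of the housekeeping genes. Across single members, 53 of 56 alternative values lay within the pooled SD of 0.40 from the reported one. The exceptions were that value of HPS4, and the means over all probe sets of HPS4 (1.39) and MYO5A (1.30). The centrings shifted every gene alike by less than this SD, and some genes kept the same probe set. Such values could not be exceptions, so the count of 53 does not measure robustness. The signs of MLPH, HPS1 and ATP7A turned, to -0.07, -0.15 and -0.14, when the arrays were centred on the mean of the housekeeping genes, and that of HPS1 turned to -0.08 without _x_at and _s_at probe sets. Among the other genes of the machinery, 13 were higher and 5 lower. The mean over all probe sets gave 8 and 3, leaving out _x_at and _s_at probe sets gave 11 and 3, centring on the housekeeping median gave 11 higher and 7 lower, and centring on the mean of the housekeeping genes gave 10 higher and 9 lower. That last alternative was chosen after seeing the data. Centring on the median difference of 21 housekeeping genes shifted every difference by -0.16 and turned the split of all genes into 892 higher and 1237 lower, beside 1146 and 960. Centring on their mean shifted it by -0.33 and gave 716 and 1613. Of the 21 housekeeping genes, 3 were themselves at least 2-fold higher, GUSB (1.81), TFRC (1.39) and RAB7A (1.38), and 0 were lower. RAB7A is also among the partner genes that were counted. Averaging all probe sets gave 796 higher and 681 lower over all genes.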

Other observations

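The genes ATP7B and SYTL5 passed the 2-fold limit without reaching log2 6 in either line, and they were chosen here after their values were seen. ATP7B, the liver counterpart of ATP7A, was at 5.95 in IGR37 and 3.82 in IGR39, with -0.32 on its other probe set. SYTL5, a RAB27 effector, was at 3.12 in IGR37 and 4.18 in IGR39, with 0.32 on its other probe set.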
